A study of Mus musculus with 12 samples.

Results

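Matricellular proteins are secreted into the extracellular matrix, where they tune adhesion and signalling without being a load-bearing part of it. A group of 10 mouse genes for such proteins was described in RNA sequencing counts of macula densa cells and of other kidney cortex cells. They were Sparc, Sparcl1, Smoc1, Smoc2 and Spock2 of the SPARC family, the spondins Spon1 and Spon2, and Thbs1, Tnc and Postn. Members were found by their gene symbol. Sparcl1 and Spon1 were chosen by their lower CPM in macula densa cells of treated mice, so their levels in those cells are given as a description, and the other 8 genes are their family members and better known matricellular relatives. Of the 10 genes, 8 had a row among the 23378 of the deposited table, and Smoc1 and Spon2 are not analysed here. A filter on low counts was passed by 6 members, as by 14180 genes in all, and Smoc2 and Postn did not pass it.

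The macula densa is a plaque of tubule cells where the thick ascending limb touches its glomerulus, which senses tubular salt and signals to the renin cells and vessels there. All mice were C57BL/6 animals of the nNosCreERT2-mTmG line, in which a Cre recombinase that tamoxifen activates is driven by the gene for neuronal nitric oxide synthase and turns membrane tdTomato into membrane GFP. The green cells of the sort stand for the macula densa. The reddest cells were sorted as controls meant to represent distal tubule and collecting duct. Each population was taken from mice on control diet and from mice on a low salt diet whose drinking water held 150 mg/L of enalapril, which inhibits angiotensin-converting enzyme, in both cases for 14 days. On each diet 2 libraries came from macula densa cells and 4 from control cells. Ages, and the number of animals behind a library, are not given in the sources used here, so p-values measure only the spread between these libraries.

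Total counts ranged from 4259034 to 14856540 per library, of which nuclear protein-coding genes held 781257 to 2331481. The floor of detection was taken as 3 counts. It came to between 0.231 and 0.734 CPM (counts scaled to a common library size, over all gene types). Nos1, the gene behind the sort, was at 106 ± 7.32 CPM (SD, n = 2) on control diet and 177 ± 78.2 CPM (SD, n = 2) on low salt with enalapril among macula densa cells. In control cells it measured 0.343 ± 0.160 CPM (SD, n = 4) and 0.544 ± 0.159 CPM (SD, n = 4). The control cells went partly against their label. Their summed level of 7 principal cell genes of the collecting duct was 102 to 808 CPM, while 10 endothelial genes summed to 57.1 to 1830 CPM and 8 podocyte genes to 49.2 to 1464 CPM. Replicate 4 on control diet stood apart from the other control-cell libraries, with the lowest endothelial and podocyte sums and the highest principal cell sum. Among macula densa libraries, replicate 1 on control diet stood apart, with an endothelial sum of 205 CPM against 30.2 CPM in replicate 2 and 14.4 to 18.6 CPM on low salt with enalapril.

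SPARC family proteins share a calcium-binding domain that lets several of them bind collagen, and SPARC itself is made by cells that lay down or remodel matrix, among them endothelial cells and podocytes. Thrombospondins and spondins share the thrombospondin type 1 repeat, which binds cell surface receptors and growth factors. Tenascin C and periostin are best known for their appearance in developing and injured tissue, where they bind integrins.

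Spock2 was the one member with a higher level in macula densa cells, so the sequence upstream of it is shown. The RefSeq promoter table (GRCm38.p6) held 4 of the 10 members. The stretch below is on the plus strand, runs 5′ to 3′ over chr10:60106007-60106218, and ends at the base before the first annotated exon. The capitals mark its longest run of pyrimidines, which has 35 bases and starts 121 bases before the RefSeq start.
Spock2: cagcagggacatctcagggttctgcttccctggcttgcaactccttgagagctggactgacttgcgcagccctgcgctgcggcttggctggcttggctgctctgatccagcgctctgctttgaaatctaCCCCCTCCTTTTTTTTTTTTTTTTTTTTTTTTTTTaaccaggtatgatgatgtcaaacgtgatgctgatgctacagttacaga
A run of one base class at least as long on either strand was present in 0.67% of 32851 promoter windows of 250 bases. The 250 bases before the Spock2 start held none of 4 motifs searched on either strand: TATAAA, which 12.4% of all such windows held, GGGCGG (32.7%), CCAAT (33.8%) and TGANTCA (6.75%). These are descriptions of letters, and binding to them was not measured.

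Averaged over both diets, macula densa cells carried less RNA of Sparc and Thbs1 than the control cells, and more of Spock2. Sparcl1 and Spon1 are left out of the counts here, because the treated macula densa libraries that chose them enter this average. Of the other 4 members that passed the filter, 3 passed an adjusted p of 0.05 in edgeR's quasi-likelihood test, 1 higher and 2 lower, where the share called among all genes was 21.3%, with 7.48% higher and 13.9% lower. The split of those calls depended on scaling: 1061 genes were higher and 1966 lower, against 1827 and 1450 when libraries were scaled by their totals alone, while all 4 kept their sign. The filter lets a gene in through the population where it is high. The median log2 fold change of the 4 members was -1.57, and that of all genes tested was -0.06. Spock2 lay above every control-cell library in all 4 macula densa libraries, where 9.58% of all genes had groups that did not overlap, 4.31% higher and 5.28% lower. In sorted bulk samples, fewer cells of a type and less RNA per cell cannot be told apart.

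Sparcl1 encodes hevin, a secreted SPARC relative known from vessel walls and from synapses. The gene lies on the minus strand of chromosome 5, 104079111 to 104113733 (GRCm38, GENCODE M21), and overlaps Gm26703 on the opposite strand, which had 0 to 5 counts per library. In control cells on control diet it measured 52.4, 54.7, 48.8 and 24.0 CPM in replicates 1 to 4, and on low salt with enalapril 40.5, 64.6, 46.2 and 55.0 CPM. Macula densa cells had 10.6 and 6.92 CPM on control diet and 1.15 and 0.656 CPM on low salt with enalapril. Every macula densa library was thus below every control-cell library, and the lowest control-cell value belonged to replicate 4 on control diet. Averaged over diets, the fitted log2 difference was -4.10 (standard error, SE, 0.32), given without a test since the choice used the macula densa libraries.

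On low salt with enalapril, both macula densa libraries were lower for Sparcl1 than both on control diet, which is the pattern it was chosen for. The level was 0.903 ± 0.349 CPM (SD, n = 2) against 8.75 ± 2.58 CPM (SD, n = 2). In reads this was 10 against 188, a ratio of 10.4% after scaling for depth (exact 95% interval 4.88% to 19.5%, counting error only). The fitted log2 difference was -3.27, or -2.99 with replicate 1 of the control diet left out, the macula densa library with the higher endothelial sum. Control cells, which the choice did not use, gave 44.9 ± 14.2 CPM (SD, n = 4) and 51.6 ± 10.6 CPM (SD, n = 4), and their libraries overlapped between diets. The log2 difference in control cells was 0.20 (SE 0.27, edgeR adjusted p 0.992).

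Spon1 encodes F-spondin, a matrix protein first known from the floor plate of the neural tube, where it guides axons, and a ligand of the reelin receptor family. It lies on the plus strand of chromosome 7, 113765998 to 114043370. In control cells it measured 14.4, 12.1, 10.95 and 19.2 CPM on control diet and 13.4, 9.30, 6.30 and 14.6 CPM on low salt with enalapril. Macula densa cells had 4.0 and 3.18 CPM on control diet, and 0.192 and 0.164 CPM on low salt with enalapril. Those last values rest on 1 read in each library, against 39 reads in each macula densa library on control diet. Both macula densa groups lay below the control cells, which is given as a description, and no fitted fold is given because 1 group was at the floor.

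Set against each other, the macula densa groups held 2 Spon1 reads on low salt with enalapril and 78 on control diet. The ratio scaled for depth was 4.99% (exact 95% interval 0.594% to 18.6%, counting error only), which is 20.04-fold lower with an interval of 5.36-fold to 168-fold. As for Sparcl1, this difference chose the gene and carries no test. The intervals of both genes allow neither for that choice nor for the spread between libraries. In control cells the diets gave 14.2 ± 3.66 CPM (SD, n = 4) and 10.9 ± 3.82 CPM (SD, n = 4), or -0.36 as fitted in log2 (SE 0.27, edgeR adjusted p 0.957). The control-cell libraries of both diets overlapped for both spondin and hevin genes.

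**Figure D1:**
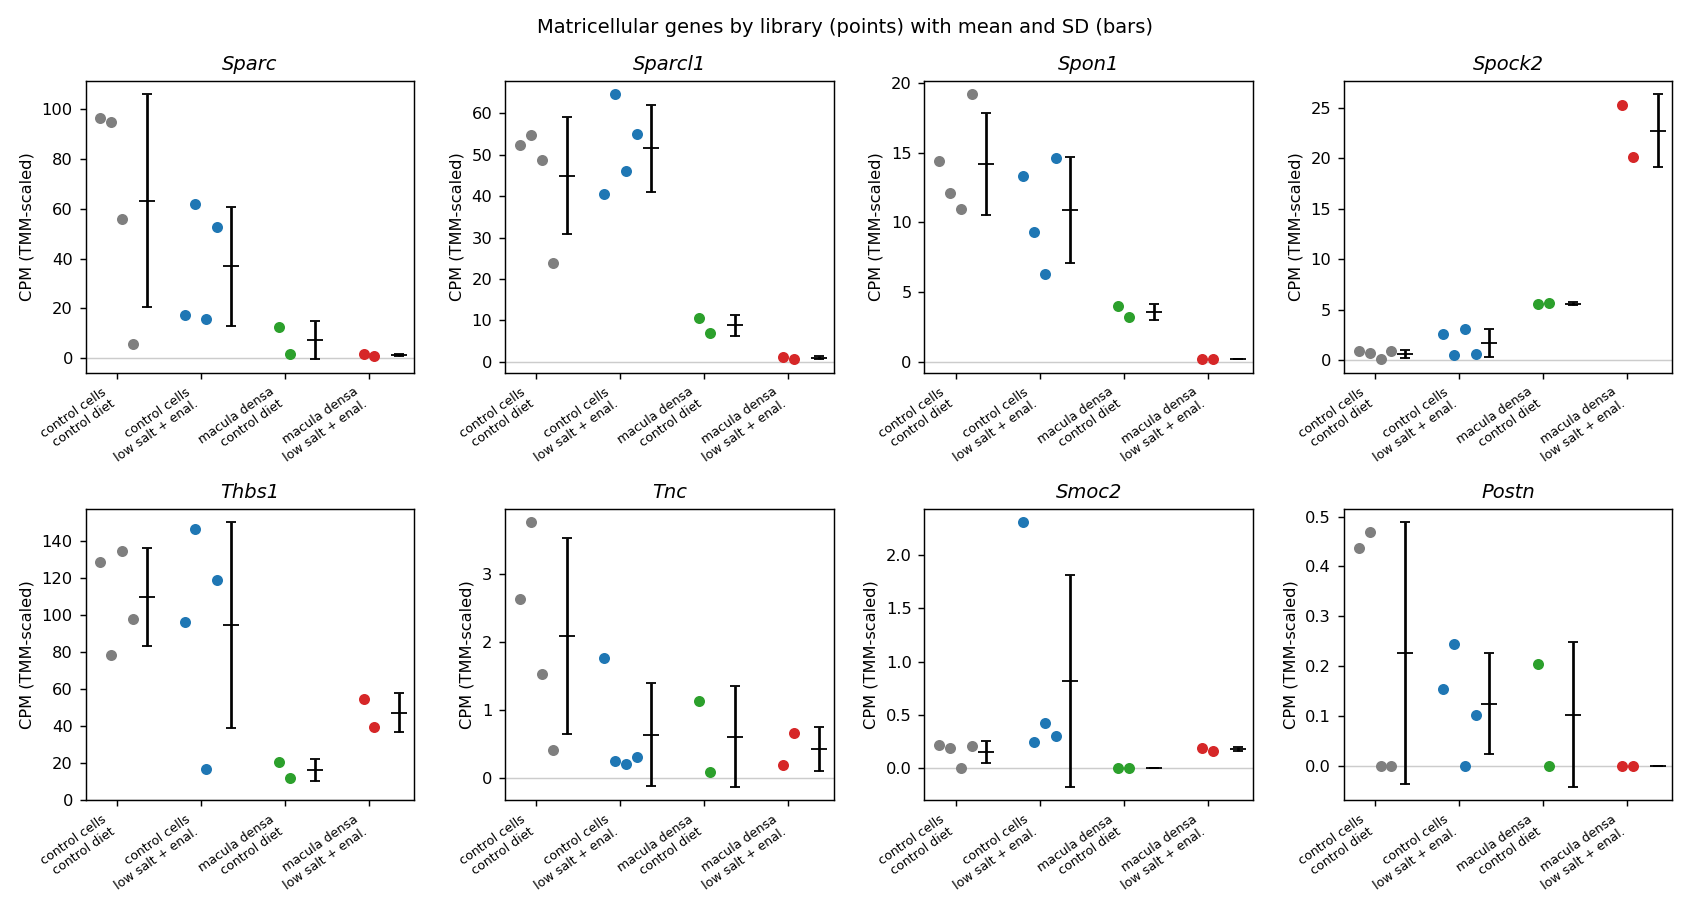
CPM of the 8 members with a row, by group, with 1 point per library in the order of the replicates and a bar for the mean and SD. Sparcl1 and Spon1 are lowest in the 2 macula densa libraries on low salt with enalapril, Spock2 is highest there, and the Sparc points of the control cells spread from 5.58 to 96.6 CPM.

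Sparc encodes the collagen-binding glycoprotein SPARC, also called osteonectin, and lies on the minus strand of chromosome 11, 55394500 to 55423183. Control cells measured 96.6, 94.9, 56.0 and 5.58 CPM on control diet and 17.2, 61.9, 15.8 and 52.6 CPM on low salt with enalapril. Macula densa cells measured 12.5 and 1.71 CPM on control diet and 1.53 and 0.984 CPM on low salt with enalapril. The control-cell libraries differed among themselves by more than the diets did, and the lowest of them, replicate 4 on control diet, lay below macula densa replicate 1 on that diet. Averaged over diets, Sparc was lower in macula densa cells (log2 fold change -4.02, SE 0.86, edgeR adjusted p 0.00696).

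The Sparc level of the control-cell libraries moved with several marker sums, most closely with those of endothelium and podocytes. Over the 8 control-cell libraries, Pearson's r of log2 CPM was 0.973 with the endothelial sum and 0.983 with the podocyte sum. For Sparcl1 these were 0.914 and 0.918, for Spon1 -0.19 and -0.22, and for Spock2 -0.40 and -0.51. Other marker sums moved with these members too: for Sparc r was 0.82 with fibroblast and mesangial genes and -0.84 with thick ascending limb genes, and for Sparcl1 0.70 and -0.71. Spon1 had its highest r of the 6 lists compared with principal cell genes, at 0.67. The libraries share their preparation and the 2 diets, so these values describe the libraries and carry no p. Replicate 4 on control diet, with endothelial and podocyte sums of 57.1 and 49.2 CPM against 1015 to 1830 and 763 to 1464 CPM in the other control-cell libraries on that diet, was lowest for Sparc and Sparcl1 on that diet and highest for Spon1 in the whole series. In macula densa cells on control diet, replicate 1 exceeded replicate 2 in Sparc by 12.5 to 1.71 CPM and in the endothelial sum by 205 to 30.2 CPM, while Sparcl1 was 10.6 and 6.92 CPM. The podocyte sums were 162 and 23.1 CPM in those libraries, and 35.6 and 21 CPM on low salt with enalapril, where the endothelial gene Plvap was at 0 counts and the other 9 endothelial genes were detected in at least 1 library. Principal cell sums were 10.7 to 36 CPM over the 4 macula densa libraries. The part of these other cells in the matricellular values was not tested.

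The ratio of Sparc to Sparcl1 reads was not constant among the libraries. It was 1.84, 1.74, 1.15 and 0.233 in control cells on control diet and 0.425, 0.958, 0.341 and 0.956 on low salt with enalapril. In macula densa cells it was 1.18 and 0.247 on control diet and 1.33 and 1.5 on low salt with enalapril, the last values from 14 Sparc and 10 Sparcl1 reads in all. The lowest ratios, 0.233 and 0.247, thus belonged to the control-diet libraries with the lowest endothelial sum in each population. The treated macula densa libraries went the other way. Their endothelial sums were lower still, at 18.6 and 14.4 CPM, and their ratios were the highest of that population.

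**Figure D2:**
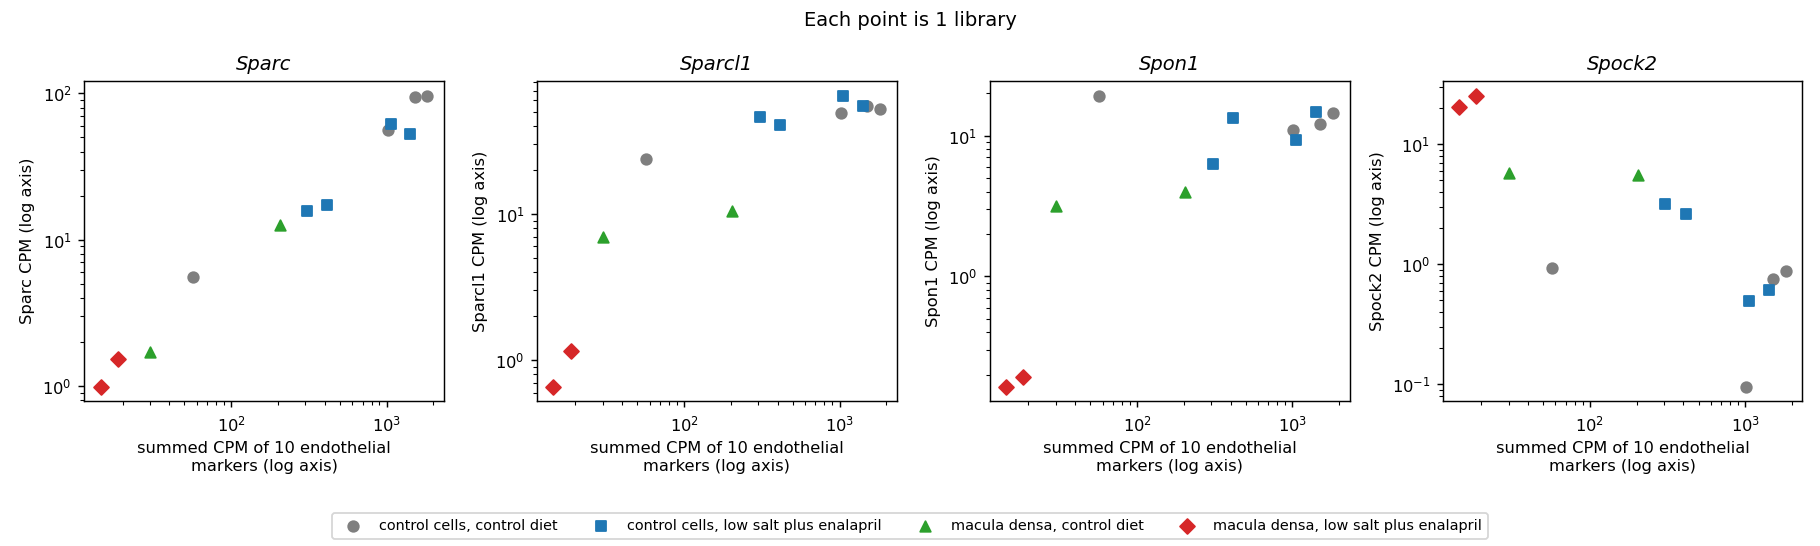
CPM of 4 members against the summed CPM of 10 endothelial markers, both on log axes, with 1 point per library and a marker shape per group. Sparc is highest and lowest among the control-cell libraries on control diet where the endothelial sum is, at 96.6 and 5.58 CPM, while Spon1 in control-cell replicate 4 on control diet is at 19.2 CPM with an endothelial sum of 57.1 CPM.

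The genes whose pattern was most like that of Sparcl1 and Spon1 were found by Pearson's r of log2 CPM over the 12 libraries, among 6687 genes with a mean of at least 5 CPM. For Sparcl1 they were Filip1 (0.985), Adgrl4 (0.980), Prkch (0.980), Kank1 (0.976) and Cd93 (0.976). For Spon1 they were Ehd1 (0.984), Akap2 (0.966), Csrp2 (0.963), Cdk6 (0.960) and Fgfr2 (0.959). No gene was on both lists, and neither held another member. Sparcl1 and Spon1 themselves had an r of 0.946 over the 12 libraries and of -0.50 over the 8 control-cell libraries. Values over the 12 libraries include the gap between populations and the libraries that chose both genes. For Sparc the highest values belonged to Podxl (0.996), Pecam1 (0.995) and Cdh5 (0.995), markers of podocytes and endothelium that were named here after their values were seen.

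Spock2 encodes testican 2, a secreted proteoglycan of the SPARC family that is known in the kidney as a glomerular product, and lies on the plus strand of chromosome 10, 60106219 to 60135198. Macula densa cells measured 5.54 and 5.70 CPM on control diet and 25.3 and 20.2 CPM on low salt with enalapril. Control cells measured 0.875, 0.752, 0.0952 and 0.930 CPM on control diet and 2.613, 0.490, 3.15 and 0.610 CPM on low salt with enalapril. All macula densa libraries were above all control-cell libraries. The podocyte sums were 21 to 162 CPM in macula densa cells and 49.2 to 1464 CPM in control cells. Control-cell values rest on 1 to 34 reads a library and macula densa values on 54 to 132. Averaged over diets, Spock2 was higher in macula densa cells (log2 fold change 3.38, SE 0.43, edgeR adjusted p 0.000347).

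The macula densa group means of Spock2 were 5.62 ± 0.115 CPM (SD, n = 2) on control diet and 22.7 ± 3.61 CPM (SD, n = 2) on low salt with enalapril. The log2 diet difference was 2.01 (SE 0.68), with an unadjusted p of 0.0113 and an edgeR adjusted p of 0.325, so it did not pass over all genes. In control cells it was 1.39 (SE 0.61, edgeR adjusted p 0.753). The difference between these diet effects was 0.62 (SE 0.93, edgeR adjusted p 0.92). The mean Spock2 level was thus higher on low salt with enalapril in both populations, and passed in neither.

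Thbs1 encodes thrombospondin 1, a large glycoprotein that binds CD36 and CD47 and can activate latent TGF-beta, and lies on the plus strand of chromosome 2, 118111876 to 118127133. Gm29233 overlaps it on the opposite strand, and whether the counting used strand is not given in the sources used here. Control cells measured 129, 78.5, 135 and 97.8 CPM on control diet and 96.5, 147, 17.0 and 119 CPM on low salt with enalapril. Macula densa cells measured 20.8 and 12.2 CPM on control diet and 54.8 and 39.9 CPM on low salt with enalapril. On control diet both macula densa libraries were below all 4 control-cell libraries, as for 16.7% of all genes, and on low salt with enalapril control-cell replicate 3, at 17.0 CPM, lay below both macula densa libraries. Averaged over diets, the log2 fold change was -1.87 (SE 0.45, edgeR adjusted p 0.0122). This call was lost without macula densa replicate 2 on control diet (adjusted p of 0.0658) or without replicate 2 on low salt with enalapril (0.0626).

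In the population means, Thbs1 was higher on low salt with enalapril in macula densa cells and slightly lower in control cells. The lower control-cell level rested on replicate 3 of that diet: without it the fitted log2 difference was 0.13. The macula densa means were 16.5 ± 6.09 CPM (SD, n = 2) and 47.3 ± 10.6 CPM (SD, n = 2), a log2 difference of 1.52 (SE 0.69), with an unadjusted p of 0.0468 and an edgeR adjusted p of 0.442. The control-cell means were 110 ± 26.6 CPM (SD, n = 4) and 94.9 ± 55.8 CPM (SD, n = 4), or -0.21 as fitted in log2 (edgeR adjusted p 0.996). Tested directly, the difference between both diet effects was 1.73 (SE 0.83), with an unadjusted p of 0.058 and an edgeR adjusted p of 0.722, so it did not pass.

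Tnc, the gene for tenascin C, lies on the minus strand of chromosome 4, 63959785 to 64047015, and 5643 of its 7772 annotated exon bases lie inside the span of 8030451A03Rik on the opposite strand, so its count is uncertain. It was low in every library. Control cells measured 2.62, 3.76, 1.52 and 0.413 CPM on control diet and 1.77, 0.245, 0.210 and 0.305 CPM on low salt with enalapril. Macula densa cells measured 1.13 and 0.0815 CPM on control diet and 0.192 and 0.656 CPM on low salt with enalapril. The groups overlapped in each comparison. Averaged over diets, the log2 fold change was -1.26 (SE 0.84, edgeR adjusted p 0.317), and the diet difference in control cells was -1.51 (SE 0.86, edgeR adjusted p 0.904).

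Smoc2, a SPARC relative of basement membranes on chromosome 17, 14279506 to 14404790, had 44 reads over all 12 libraries, and 30 of them came from control-cell replicate 1 on low salt with enalapril, at 2.31 CPM. Every other library held at most 3 Smoc2 reads. Postn, the gene for periostin on chromosome 3, 54361109 to 54391037, had 15 reads in all and at most 5 in a library. Neither was detectable beyond the floor in macula densa cells at this depth.

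The comparison of populations was also made within each diet, between libraries the other diet did not use. On control diet, 2 of the 4 members open to a test passed (Spock2 higher, Thbs1 lower), where 6.61% of all genes were called (2.69% higher and 3.92% lower, 382 and 556 genes, or 542 and 328 with library totals alone). The log2 fold changes were 3.07 for Spock2 (standard error 0.63, edgeR adjusted p of 0.0157) and -2.74 for Thbs1 (standard error 0.67, edgeR adjusted p of 0.0324). Sparc had -3.16 (SE 1.09, edgeR adjusted p 0.102), which was -3.55 with an adjusted p of 0.0112 without control-cell replicate 4 on control diet. Tnc had -1.81 with an adjusted p of 0.353. Both calls rested on both macula densa libraries: without replicate 1 the adjusted p was 0.0746 for Spock2 and 0.116 for Thbs1, and without replicate 2 it was 0.126 and 0.255. As a description, Sparcl1 had -2.36 and Spon1 -1.98.

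On low salt with enalapril, 2 of the 4 members open to a test passed again, with Spock2 higher and Sparc lower, where 7.27% of all genes were called (3.15% higher and 4.13% lower, 446 and 585 genes, or 736 and 392 with library totals alone). The log2 fold change was 3.69 for Spock2 (SE 0.59, edgeR adjusted p 0.00442). Sparc had -4.87 (SE 1.32, edgeR adjusted p 0.0448), close to the threshold, and its adjusted p ranged from 0.00691 to 0.234 with 1 library left out. Thbs1 had -1.0 with an adjusted p of 0.32, which was -1.35 and 0.0366 without control-cell replicate 3 on low salt with enalapril. Tnc had -0.72 with an adjusted p of 0.765. Sparcl1, untested here, had -5.83, and Spon1 stood at 2 reads in macula densa cells against 386 in control cells.

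Within macula densa cells, none of the 4 members open to a test passed between diets in edgeR (0 of 4), nor in DESeq2 (0 of 6 with a row) or limma voom (0 of 4). Across all genes 0 of 14180 passed, a share of 0%, while 1594 (11.2%) had an unadjusted p under 0.05. Unadjusted, Spock2 and Thbs1 were under 0.05. In the libraries themselves, Sparc was lower and Spock2 and Thbs1 higher in both treated libraries than in both controls. The groups of 40.6% of all genes did not overlap with 2 libraries each, 18.8% higher and 21.8% lower. Sparcl1 and Spon1 were lower too, but they were chosen for that fall and are not set against this share. Sparc had a log2 difference of -2.49 (SE 1.34, edgeR adjusted p 0.525), and without replicate 1 on control diet it was -0.50. A fit of the 4 macula densa libraries alone called Spock2 (log2 2.03, edgeR adjusted p of 0.00522) and Thbs1 (log2 1.54, edgeR adjusted p of 0.0262). That fit called 105 genes in all, where the main fit called 0, so both calls depended on which libraries were fitted. The filter, the scaling and the spread all came from those 4 libraries, and which of these mattered was not tested.

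**Figure D3:**
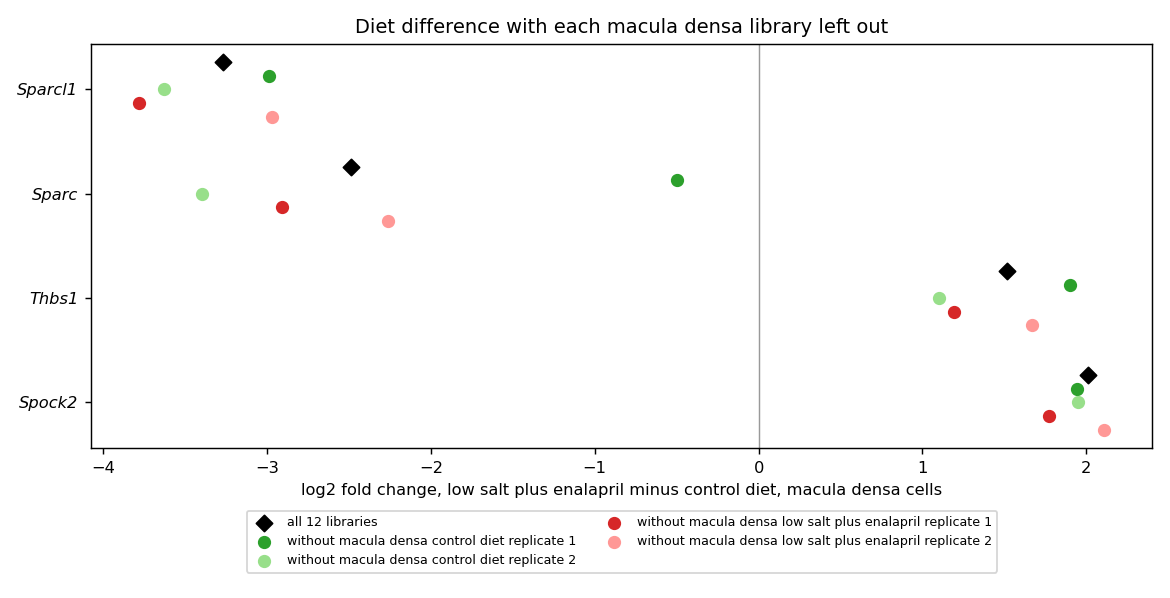
Log2 diet difference of 4 members in macula densa cells, with all 12 libraries (diamonds) and with each macula densa library left out in turn (circles). Sparc moves from -2.49 to -0.50 without replicate 1 on control diet. The values of Sparcl1, from -3.78 to -2.97, are a description only, since the gene was chosen by its fall in these libraries.

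Within control cells, 0 of the 6 members passed between diets in edgeR, 0 of 8 with a row in DESeq2 and 0 of 6 in limma voom, and 0.00705% of all genes were called. Spock2 alone had an unadjusted p under 0.05, at 0.0408, as did 6.45% of all genes. The libraries of both diets overlapped for all 6 members, where the groups of 4.2% of all genes did not. The log2 difference of Sparc was -0.78 (edgeR adjusted p 0.967). For the contrast of both diet effects, 0 of 4 members passed in edgeR (0% of all genes, 997 or 7.03% with an unadjusted p under 0.05), 0 of 6 in DESeq2 and 0 of 4 in limma voom, and 0 of the 4 had an unadjusted p under 0.05. Sparc had -1.70 there with an adjusted p of 0.859, and Tnc 1.09 with an adjusted p of 0.925.

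**Figure D4:**
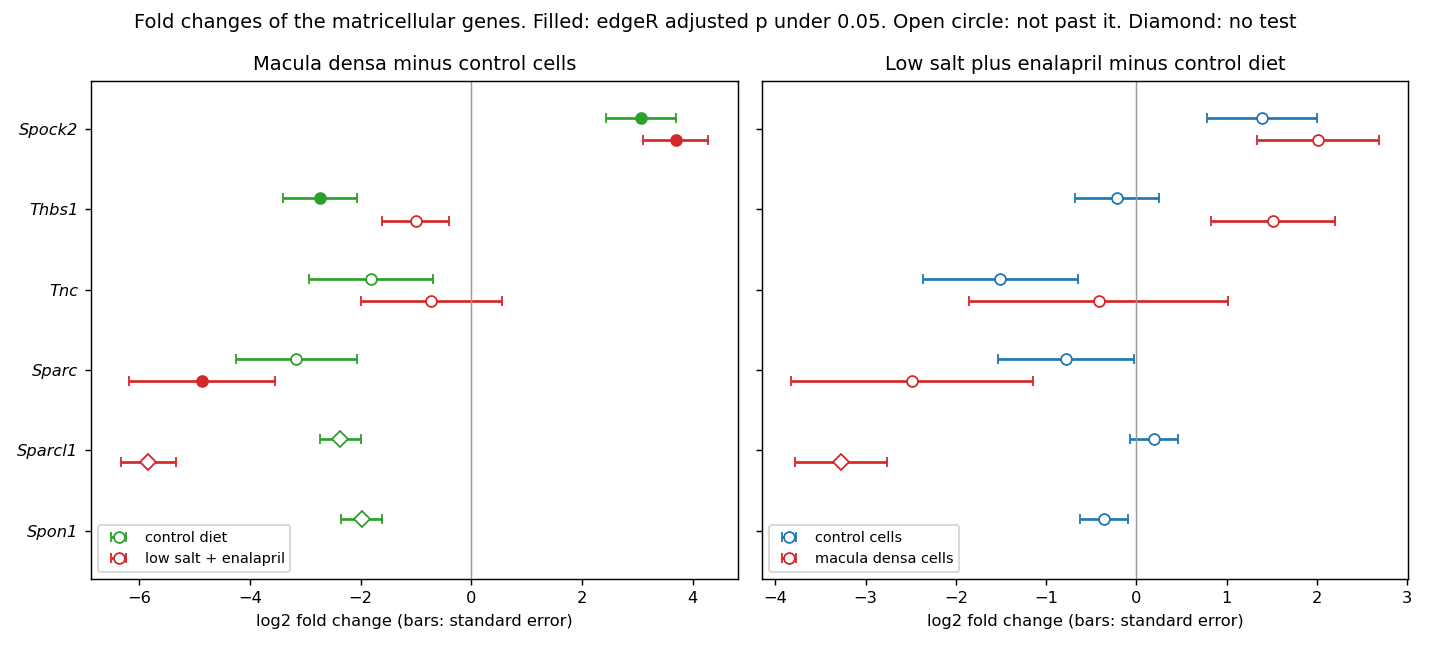
Fitted log2 fold changes with standard errors for the 6 members that passed the filter, between populations on each diet (left) and between diets in each population (right). Filled circles passed an edgeR adjusted p of 0.05, open circles did not, diamonds carry no test, and Spon1 is left out where 1 group was at the floor.

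The order of the members differed between populations when levels were divided by the length of their annotated exons in kb. In control cells on control diet, mean CPM per kb was 18.1 ± 4.37 for Thbs1, 16.7 ± 11.3 for Sparc and 15.3 ± 4.83 for Sparcl1 (SD, n = 4 each), which overlapped. Spon1 followed at 1.37 ± 0.352, then Tnc at 0.268 ± 0.185 and Spock2 at 0.120 ± 0.0697, and the last pair overlapped. In macula densa cells on control diet Sparcl1 (2.98 ± 0.877) and Thbs1 (2.72 ± 1.0) led, followed by Sparc (1.88 ± 2.02), Spock2 (1.02 ± 0.0208) and Spon1 (0.346 ± 0.0561, SD, n = 2 each). Sparc overlapped all of these but Spon1. On low salt with enalapril the macula densa order was Thbs1 at 7.79 ± 1.74, Spock2 at 4.11 ± 0.653, then Sparc at 0.332 ± 0.102 and Sparcl1 at 0.307 ± 0.119 CPM per kb (SD, n = 2 each), of which only the last pair overlapped. Spock2 was thus second in treated macula densa cells, and last with Tnc among the tested members in control cells on control diet. In control cells on low salt with enalapril, Spock2 was at 0.310 ± 0.247 and Tnc at 0.0813 ± 0.0975 CPM per kb (SD, n = 4 each), which overlapped.

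Other genes of the same pathways were taken from a list of 59, of which 57 had a row and 46 passed the filter. Averaged over both diets, 30 of the 46 passed, with 4 higher in macula densa cells and 26 lower, where 21.3% of all genes were called, 7.48% higher and 13.9% lower. Scaling by library totals gave 5 as higher and 21 as lower, beside 1827 and 1450 among all genes. The median log2 fold change was -2.02, or -1.91 with the 10 genes at the floor set to their bound. The number that passed was 12 when macula densa replicate 2 of the treated mice was left out, and 16 when replicate 2 of the control diet was. By role, 2 of 2 further SPARC family genes tested were lower, 1 of 1 thrombospondin, 1 of 3 tenascins, 1 of 2 spondin relatives and 3 of 7 other secreted proteins, and none of these groups had a higher member. Of 9 collagen and fibronectin genes, 6 were lower and 1 higher. Of 3 CCN genes, 2 were lower and 1 higher.

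Among 18 receptors tested, 10 were lower and 2 higher, beside the 13.9% and 7.48% of all genes. The higher ones were Itgav, an integrin chain that binds many matrix proteins, and Sdc4, a heparan sulfate proteoglycan of focal adhesions. Itgav measured 92.2 ± 1.91 and 131 ± 5.04 CPM (SD, n = 2 each) in macula densa cells on control diet and on low salt with enalapril, against 50.6 ± 16.6 and 64.7 ± 17.2 CPM (SD, n = 4 each) in control cells (log2 0.94, edgeR adjusted p of 0.00758). Sdc4 measured 178 ± 8.55 and 141 ± 10.5 CPM (SD, n = 2 each) against 110 ± 9.60 and 92.8 ± 15.4 CPM (SD, n = 4 each), or 0.65 as fitted in log2 (edgeR adjusted p 0.00784). Both were above every control-cell library in all 4 macula densa libraries, as were 4.31% of all genes. Stab1, the endothelial and macrophage scavenger receptor that takes up SPARC, was lower, at 1.86 ± 1.72 and 0.547 ± 0.310 CPM (SD, n = 2 each) against 24.9 ± 17.0 and 21.3 ± 18.4 CPM (SD, n = 4 each), or -4.52 as fitted in log2 (edgeR adjusted p 0.0103).

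The integrin chains Itga8 and Itga9, which bind tenascin C among other ligands, had 0 reads in both macula densa libraries on low salt with enalapril. On control diet they measured 3.12 ± 3.72 and 2.22 ± 1.07 CPM (SD, n = 2 each) in macula densa cells. Of the 62 Itga8 reads there, 56 came from 1 library. In control cells on that diet they measured 20.9 ± 17.5 and 15.3 ± 9.50 CPM (SD, n = 4 each). Control cells on low salt with enalapril had 3.63 ± 2.55 and 10.4 ± 8.65 CPM (SD, n = 4 each), so both means were lower there too. Taken over both diets, the libraries of the populations overlapped for both integrin genes. Fibulin 2 (Fbln2), an elastic fibre and basement membrane protein, also had 0 reads in treated macula densa cells and 4.67 ± 1.39 and 2.90 ± 2.03 CPM (SD, n = 4 each) in control cells on control diet and on low salt with enalapril. All 3 passed averaged over diets, with edgeR adjusted p-values of 0.0363 for Itga8, 0.00764 for Itga9 and 0.000857 for Fbln2.

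Ccn3, a CCN gene, and the collagen gene Col5a2 were also higher in macula densa cells averaged over diets. Ccn3 had 57 reads in macula densa cells on control diet, at 2.59 ± 0.0297 CPM (SD, n = 2). On low salt with enalapril it had 3 reads there. All control-cell libraries of each diet held 1 and 2 reads (edgeR adjusted p of 0.0156 averaged over diets). Only the macula densa group on control diet was above the floor, so Ccn3 passed the filter through that group. Between populations on low salt with enalapril Ccn3 did not pass (edgeR adjusted p 0.459). Col5a2 measured 59.9 ± 13.4 and 28.2 ± 12.5 CPM (SD, n = 2 each) in macula densa cells against 19.6 ± 13.02 and 11.9 ± 6.86 CPM (SD, n = 4 each), or 1.44 as fitted in log2 (edgeR adjusted p 0.031). The Col5a2 libraries of the populations overlapped.

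Within diets fewer of these 46 genes passed. On control diet 8 did, 1 higher (Ccn3) and 7 lower, among them Fbln2 (log2 -4.24), Fbln5 (-3.47), Spock3 (-3.16) and Fn1 (-2.94), which passed the edgeR threshold of 0.05. With library totals alone, 2 passed as higher and 6 as lower. Without 1 library the number changed: leaving out control-cell replicate 4 of that diet gave 26, leaving out macula densa replicate 1 gave 5, and leaving out replicate 2 gave 0. On low salt with enalapril 9 passed, all lower, among them Itga9, Fbln2, Col3a1 and Fn1, or 1 higher and 7 lower with library totals alone. Fibronectin (Fn1) was at 2.98 ± 0.423 CPM in macula densa cells (SD, n = 2) and 31.5 ± 6.68 CPM in control cells (SD, n = 4), or -3.39 as fitted in log2 (edgeR adjusted p 0.00972). Of the 46, 18 passed without control-cell replicate 4 of the control diet, 5 without control-cell replicate 4 on low salt with enalapril and 1 without either macula densa library. Between diets 0 of the 46 passed in macula densa cells in edgeR (7 with an unadjusted p under 0.05, 1 by DESeq2 and 0 by limma voom), and 0 passed in control cells (12 unadjusted, 4 by DESeq2 and 0 by limma voom).

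**Figure D5:**
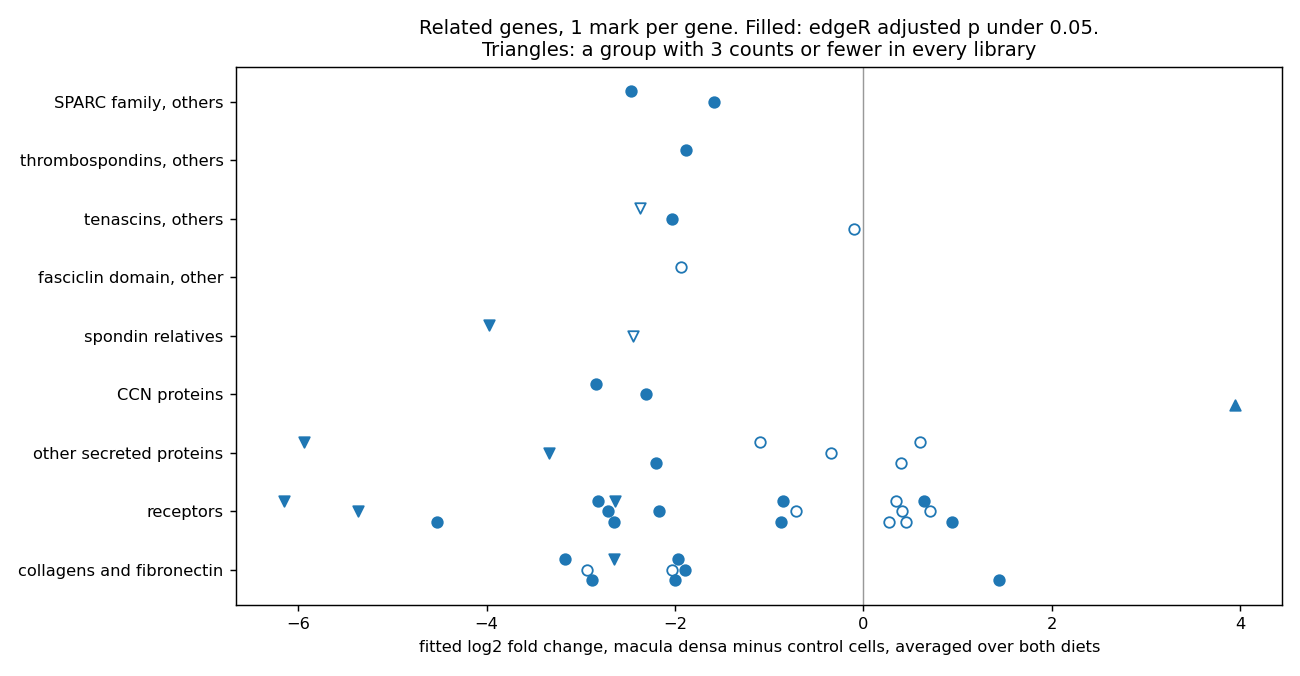
Fitted log2 fold changes of 46 related genes between macula densa and control cells, averaged over both diets, with 1 mark per gene in rows by role. Most marks lie left of 0 (35 of 46), 4 of the marks right of 0 are filled, and triangles are genes with a group at the floor, whose position depends on the fit.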

How the data were processed

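The deposited table held expected counts per gene, that is, read numbers estimated by the authors' tools and not scaled for depth, for 12 RNA sequencing libraries of sorted mouse kidney cortex cells. STAR 2.61 and Partek are named with genome build mm10, per the submitters' processing notes, without their roles. Per the labels' protocols, RNA came from sorted cells and libraries were made with a strand-keeping kit for small amounts of total RNA. Of the values, 15% were not whole and were rounded. The smallest row total was 10, and 0 columns lacked a sample. Coordinates are those of GENCODE M21 on GRCm38.

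Genes were filtered with filterByExpr of edgeR 4.0.16 in R 4.3.3 (count minimum 10, total minimum 15), which left 14180. One quasi-likelihood fit with TMM scaling and a coefficient per group covered all 12 libraries, so that the groups with 2 libraries share the spread of the others. P-values were adjusted over all genes with the Benjamini-Hochberg method at 0.05. CPM values use TMM-scaled totals, and log2 CPM used a prior count of 2. Counting intervals are exact, at 95%, and cover counting error only: no molecular identifiers are given, so reads may be copies of 1 molecule. A group with at most 3 counts in every library was treated as at the floor.

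The members and lists were chosen with earlier results of these data known. All members are named in every comparison. A test of Sparcl1 and Spon1 between populations averaged over diets was planned and then dropped, since it draws on the libraries behind their choice. From the wider lists of related genes, up to 4 genes per direction with the largest change among those past the threshold are named in each comparison, and for Sparcl1 and Spon1 the 5 genes with the highest correlation over the 12 libraries, among those with a mean of at least 5 CPM. Marker lists of other cell types are described by summed CPM and were not tested; those for leukocytes, intercalated cells, proximal tubule, distal convoluted tubule, smooth muscle and fibroblasts are in the closing part.

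The fit was tested on simulated data with the totals of these libraries and the same pooled mean per gene in every group. Before the changes the simulated populations thus did not differ, so the recovery may not hold for genes much lower in macula densa cells. Of 200 genes changed 4-fold it recovered 65.5% between populations averaged over diets (13705 genes tested, 5 false calls), 24.5% between diets in macula densa cells (13489 genes, 1 false call) and 49.5% between diets in control cells (13685 genes, 4 false calls). Counts of replicate libraries differed by more than sampling noise in every pair. Alternatives were DESeq2 1.42.0 size factors, library totals alone, no filter, a mean of at least 5 CPM, a fit without mitochondrial genes or ribosomal RNA, the Wald test of DESeq2, limma 3.58.1 voom with sample weights, only the groups compared, a threshold of 0.01, replicate blocks and each library left out.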

Additional observations from a re-analysis of the deposited data

Results flagged for a closer look

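Within the groups of 4 control-cell libraries, 1 library stood far from the other 3 in 4 of 16 sets of member and diet: its gap to the nearest of them took a larger share of the group's whole range than Dixon's 95% critical value. At a chance rate of 1 in 20, about 0.8 sets would be picked out. On the log2 CPM scale, Sparcl1 was 4.597 on control diet in replicate 4, against 5.61 to 5.78 in the others. Spock2 was -1.63 in replicate 3 on control diet, from 1 read, and -0.03 to 0.21 in the others. Smoc2 was -2.13 in replicate 3 on control diet, from 0 reads, and -1.26 to -1.16 in the others. Tnc was 0.997 on low salt with enalapril in replicate 1, against -1.19 to -0.91 in the others. The Smoc2 and Spock2 values lie near the floor of detection, while Sparcl1 had 232 reads in the library that stood apart.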

How the results depend on the processing

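Between populations averaged over diets, where 3 of 4 members passed, 2 to 3 did with each library left out, 2 at a threshold of 0.01 and 2 with voom, where Sparc was lost (adjusted p 0.0533). On control diet, where 2 passed, the count was 0 at a threshold of 0.01, 1 with library totals alone, 0 with the title numbers as a replicate block, and 0 to 3 with each library left out. On low salt with enalapril, where 2 passed, it was 1 at 0.01, with library totals alone, with voom and with the title numbers as a block, and 1 to 3 with each library left out. In macula densa cells it was 2 of 3 tested when only the groups compared were fitted, and 0 with each library left out.

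Signs turned for values that had not passed, as follows (ranges are over each library left out). The Sparc difference of diet effects ranged from -2.62 to 0.27, with its sign turned without macula densa replicate 1 (control diet). Between diets in control cells, Sparcl1 ranged from -0.0122 (without replicate 4, control diet) to 0.33, and Thbs1 from -0.50 to 0.13 (without replicate 3, treated). Tnc between diets in macula densa cells was 0.57 with voom and ranged from -1.60 to 2.18 (without replicate 1, control diet), or 0.0897 without replicate 1, treated. Tnc between populations of treated mice was 0.66 with the description numbers as a block, and ranged from -1.91 to 0.70 (without control-cell replicate 1, treated). Its difference of diet effects ranged from -0.15 (without macula densa replicate 2, treated) to 3.64. The cause was not tested.

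Library totals moved the median of all genes from -0.06 to 0.14 averaged over diets. The description numbers are shared by 4 macula densa and control-cell pairs, whose correlations of deviations were 0.08, 0.23, -0.02 and -0.04, and 1 of 4 libraries correlated best with its own number. With 2 macula densa libraries a diet these deviations mirror each other, so this check cannot show whether the pairs belong together, and the labels do not say what the numbers mark. As a block they gave 3, 3 and 3 members averaged over diets and within each, and 3683, 2292 and 2231 genes. The title numbers as a block gave 1908, 378 and 396 genes. In the counts that follow, ranges over libraries left out are whole ranges and include counts that moved by less. Counts over all genes that moved by over 1.5 times were, averaged over diets, 1301 (0.01), 1872 (5 CPM) and 1680 to 3968 (libraries left out); on control diet, 241 (0.01), 1879 (DESeq2), 1919 (voom), 608 (5 CPM), 468 (groups alone) and 122 to 2490 (libraries left out); on low salt with enalapril, 251 (0.01), 1757 (DESeq2), 516 (voom) and 194 to 1894; between macula densa diets, 105 (groups alone), 61 (DESeq2), 4 (voom) and 0 to 1 (libraries left out); between control-cell diets, 64 (DESeq2), 0 (groups alone) and 1 to 5 (libraries left out); for the difference of diet effects, 13 (DESeq2) and 3 (block). Depth limits Spon1 and Sparcl1 in treated macula densa cells, at 2 and 10 reads.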

Other observations

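Markers of other cell types, which belong to no comparison above, differed among the libraries as follows, in summed CPM. Smooth muscle and renin cell genes (6) came to 122 to 173 in control cells on control diet and 143 to 536 on low salt with enalapril, and to 26.1 to 41.8 and 20.3 to 23.0 in macula densa cells. Ren1 alone was 4.52 ± 1.90 and 84.3 ± 39.7 CPM (SD, n = 4 each) in control cells, and 1.21 ± 0.324 and 9.61 ± 1.95 CPM (SD, n = 2 each) in macula densa cells. Fibroblast and mesangial genes, of which 4 of 6 had a row, came to 4.13 to 60.5 and 11.8 to 15.7 in control cells and to 1.06 to 12.3 and 0.164 to 2.68 in macula densa cells. Leukocyte genes, 6 of 7 with a row, came to 5.04 to 44.1 in control cells and 1.31 to 4.21 in macula densa cells. Proximal tubule genes were highest in macula densa cells on control diet, at 109 to 179, against 33.3 to 70.2 on low salt with enalapril and 8.19 to 74.2 in control cells. Intercalated cell genes came to 18.7 to 313 in control cells and 15.5 to 30.3 in macula densa cells, and distal convoluted and connecting tubule genes to 69.1 to 641 and 75.1 to 170. Thick ascending limb genes came to 2278 to 4106 in macula densa cells and 208 to 1519 in control cells. Macula densa genes (6) came to 2151 to 3087 in macula densa cells and 44.6 to 434 in control cells, and erythroid genes to 1.92 to 7.41 and 0 to 94.7.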
